A study of Homo sapiens with 11 samples.

Results

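The region described here is the HOXD cluster with MTX2 and 500 kb of sequence on each side, on human chromosome 2 (chr2:175587487-176838025, GRCh38). It is the stretch around the 9 HOXD genes (HOXD1, HOXD3, HOXD4, HOXD8, HOXD9, HOXD10, HOXD11, HOXD12 and HOXD13) and MTX2, the next protein-coding gene beyond HOXD1. It held 267 of the 134925 peaks in 9 peak lists, or 0.198%. The region was selected on the fold enrichment and −log10 p of its FLI1 peak as well as on its genes, so these values of that peak are given as a description. All lists came from chromatin immunoprecipitation with sequencing (ChIP-seq) in SK-N-MC, a cell line from a human Ewing sarcoma, labelled wildtype and with no treatment given in the labels. The targets were FLI1, the nucleosome remodelling and deacetylase (NuRD) subunits CHD4 (immunoprecipitated through a Flag tag), HDAC2, MTA2 and RBBP4, and the histone marks H3K27ac, H3K4me1, H3K4me3 and H3K27me3. There was 1 sample and 1 list per target and no deposited read count, so the depth is unknown, no value below has a replicate error, and no difference could be tested. A peak's height is its fold enrichment at the summit over local background, and its strength is −log10 p, both as the authors' peak caller gave them. The strength needed for a peak differed: the smallest −log10 p was 5.02 in the FLI1 list, 7.01 in the RBBP4 list and about 9 in the others. As a check of the line, FLI1 peaks lay within 100 kb of 4 known targets of its fusion, NR0B1 (5.45-fold), CCND1 (9.05-fold), NKX2-2 (up to 14.7-fold) and LIPI (14.4-fold). The NR0B1 peak, with a −log10 p of 8.84, was below the list medians of 7.29-fold and 19.01. The share of all genes with a FLI1 peak so near is not given here, which limits this check.

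HOX genes encode homeodomain transcription factors that set position along the body axis, and within a cluster they are switched on in their order along the chromosome. Silent HOX genes are typically held by Polycomb complexes under H3K27me3, and active ones carry H3K4me3 and H3K27ac at their starts. The HOXD cluster sits between gene-poor flanks that are known in limb development to hold distant enhancers for its genes. In Ewing sarcoma the EWSR1::FLI1 fusion is known to bind repeats of GGAA and to turn them into enhancers, and posterior HOXD genes are known to be highly expressed in these tumours. NuRD joins the nucleosome remodeller CHD4 to the histone deacetylase HDAC2, with MTA2 as a scaffold and RBBP4 as a histone-binding subunit.

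Start sites came from RefSeq windows of 300 bases on GRCh38.p14, running from 250 bases before a start to 50 after it. Windows were listed for 9 of the 10 genes (all but HOXD9). The windows of HOXD13, HOXD11, HOXD10 and HOXD1 are shown because the first pair carried the highest H3K4me3 of the region and the second pair carried no peak of any list over their gene bodies. Each is on the plus strand, 5′ to 3′, with CG dinucleotides in capitals (CG reads the same on both strands). They lie at chr2:176092471-176092770 for HOXD13, chr2:176107030-176107329 for HOXD11, chr2:176116528-176116827 for HOXD10 and chr2:176188418-176188717 for HOXD1.
HOXD13: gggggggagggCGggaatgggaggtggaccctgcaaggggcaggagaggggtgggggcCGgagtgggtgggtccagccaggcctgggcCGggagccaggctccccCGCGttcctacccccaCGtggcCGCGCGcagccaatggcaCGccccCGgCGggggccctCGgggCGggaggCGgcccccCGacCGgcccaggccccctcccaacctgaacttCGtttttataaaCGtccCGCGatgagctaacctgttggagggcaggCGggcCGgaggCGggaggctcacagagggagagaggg
HOXD11: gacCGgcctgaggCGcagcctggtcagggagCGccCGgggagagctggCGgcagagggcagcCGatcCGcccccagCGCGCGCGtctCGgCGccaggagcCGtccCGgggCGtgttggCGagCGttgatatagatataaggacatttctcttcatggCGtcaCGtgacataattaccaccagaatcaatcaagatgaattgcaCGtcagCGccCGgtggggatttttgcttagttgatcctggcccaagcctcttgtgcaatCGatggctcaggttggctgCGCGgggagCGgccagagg
HOXD10: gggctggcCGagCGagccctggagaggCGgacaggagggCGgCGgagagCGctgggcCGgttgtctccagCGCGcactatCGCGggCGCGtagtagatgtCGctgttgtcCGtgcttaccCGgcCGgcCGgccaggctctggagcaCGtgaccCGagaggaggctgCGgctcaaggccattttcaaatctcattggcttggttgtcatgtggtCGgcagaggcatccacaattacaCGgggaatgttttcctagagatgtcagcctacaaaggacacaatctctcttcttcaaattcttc
HOXD1: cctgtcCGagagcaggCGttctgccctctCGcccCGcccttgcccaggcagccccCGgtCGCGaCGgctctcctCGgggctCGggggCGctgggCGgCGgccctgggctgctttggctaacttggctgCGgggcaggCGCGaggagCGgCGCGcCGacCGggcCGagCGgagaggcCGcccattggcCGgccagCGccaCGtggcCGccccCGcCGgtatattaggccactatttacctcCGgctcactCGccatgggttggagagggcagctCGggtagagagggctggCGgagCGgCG
CG occurred 24 times in the HOXD13 window and 27 times in the HOXD11 window, and 33.9% and 28.2% of the 35116 listed promoter windows held at least as many. The HOXD10 window, without a called peak, had 23 CG. The HOXD1 window, also without one, had 36, the highest count among the 9 members, reached by 12.7% of windows. The pair with peaks and the pair without therefore overlapped in CG count. The lowest count was 4, at HOXD4, which also had no peak, against a median of 14 over all windows. The tandem motif GGAAGGAA or TTCCTTCC (the same repeat on either strand) was found in 0 of the 9 windows and in 3.67% of all windows. This says only that these letters are not in these windows. The bases under the FLI1 peak are not shown, since a genome was not used here.

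The region held 1 FLI1, 36 CHD4, 32 HDAC2, 30 MTA2, 33 RBBP4, 33 H3K27ac, 86 H3K4me1 and 16 H3K4me3 peaks and none of H3K27me3. These counts are not ranked, since the lists differ in threshold and in size. Peaks were densest in the 103.4 kb from HOXD13 to HOXD1, where all 7 lists with more than 1 peak in the region had their highest density. There were 14.5 H3K4me1, 13.5 RBBP4, 12.6 H3K27ac, 11.6 MTA2, 10.6 CHD4, 10.6 HDAC2 and 8.70 H3K4me3 peaks per 100 kb in the cluster, by summit position. For H3K4me1 the MTX2 gene body came close, at 13.1 peaks per 100 kb. The 78.5 kb between HOXD1 and MTX2 held the summits of 1 CHD4, 1 MTA2 and 1 H3K4me1 peak, and the first pair belonged to the MTX2 start. In the 500 kb beyond MTX2, away from the centromere, H3K4me1 reached 8.80 peaks per 100 kb and CHD4 3.00, against 3.40 and 1.20 on the centromeric side. H3K4me3 went the other way, with 0.400 and 0.800 peaks per 100 kb. Heights were near those of the lists as a whole. The median fold enrichment in the region was 4.53 for CHD4, 4.70 for HDAC2, 6.16 for MTA2, 4.69 for RBBP4, 6.40 for H3K27ac and 14.5 for H3K4me3. The medians over the whole lists were 4.65, 5.08, 6.64, 4.26, 7.45 and 16.2 in the same order.

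**Figure D1:**
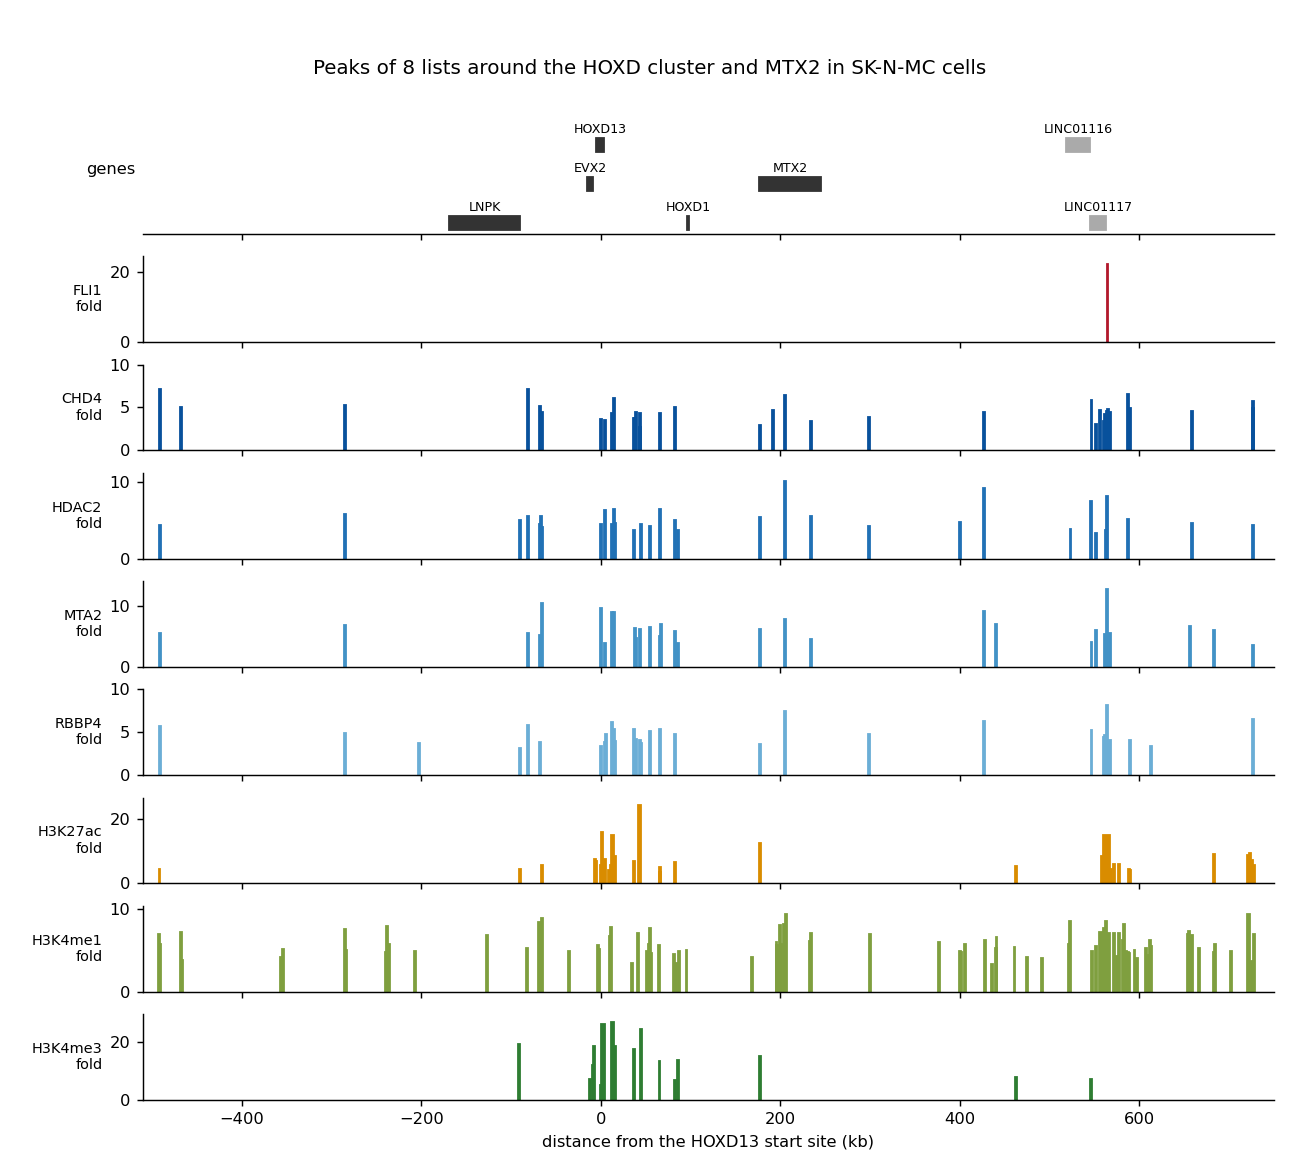
Peaks of the 8 lists with any peak in the region, plotted by distance from the HOXD13 start site (kb) with fold enrichment as bar height. Bars narrower than about 2 kb are drawn wider to be visible. Dark boxes are protein-coding genes and grey boxes noncoding ones, and the single FLI1 peak stands 563.8 kb from the HOXD13 start.

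At the edges of the region the nearest peaks inside and outside were all H3K4me1. On the centromeric side the peak just inside had a fold enrichment of 6.97 and that just outside 5.93. On the other side the values were 6.90 inside and 13.8 outside, 13.3 kb beyond the edge.

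HOXD13, whose protein patterns the digits, and HOXD11, known from mice to pattern the forearm, carried the highest H3K4me3 peaks of the region. Among H3K27ac peaks that overlapped a start of the 10 genes, theirs were also the highest by summit value. The H3K4me3 peak over the HOXD13 start was 5072 bp wide (chr2:176092643-176097714), with a fold enrichment of 26.4 and a −log10 p of 134. Only 0.410% of H3K4me3 peaks were at least as wide. The H3K27ac peak at the same start was 16.0-fold and 2272 bp wide. Peaks of all 4 NuRD subunits lay there as well, at 9.80-fold for MTA2, 4.54 for HDAC2, 3.67 for CHD4 and 3.37 for RBBP4. The MTA2 peak was among the highest 11.7% of its list, while RBBP4 was lower at HOXD13 than at the other 4 member starts that carried it, and CHD4 was lower only at MTX2.

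At HOXD11 the H3K4me3 peak was 27-fold, the highest of the region, and 3798 bp wide (chr2:176103817-176107614). The H3K27ac peak beneath it was 15.1-fold and 3742 bp wide. Both reached the start site only with their ends, with summits 2618 bp (H3K4me3) and 2581 bp (H3K27ac) before it. An H3K4me3 peak with its summit 682 bp from the start was 18.6-fold, lower than the 19.3-fold peak at the LNPK start. An H3K27ac peak with its summit 698 bp from the HOXD11 start was 8.47-fold, lower than the 12.5-fold peak at the MTX2 start. All 4 subunits were found within 1 kb of the start, with MTA2 at 9.04-fold, HDAC2 at 6.48, CHD4 at 6.09 and RBBP4 at 5.35. The CHD4 peak ended 371 bp before the start and did not touch the gene body. A further site with all 4 subunits lay under the upstream end of the same H3K4me3 peak (chr2:176103853-176105735), where MTA2 reached 9.14-fold and RBBP4 6.18-fold.

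HOXD12, between these genes, had no H3K4me3 or subunit peak over its body. It carried an H3K27ac peak of 4.17-fold (−log10 p 10.9) and an H3K4me1 peak of 6.67-fold, and its start lay 2081 bp from the end of the broad HOXD13 H3K4me3 peak. HOXD10 and HOXD9, which with HOXD11 belong to the posterior HOX genes used in limb and lower trunk, carried no peak of any of the 9 lists. They sat in a stretch of 17.4 kb (chr2:176108676-176126038) that was the longest without a peak in the cluster. The nearest H3K4me3 peak ended 8103 bp before the HOXD10 start. The posterior part of the cluster thus held the members with the highest H3K4me3 peaks beside members without a called peak.

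In the middle of the cluster, HOXD8 carried H3K4me3 at 17.5-fold and H3K27ac at 6.94-fold over its start. Its subunit peaks reached 6.34-fold for MTA2, 5.33 for RBBP4, 4.42 for CHD4 and 3.76 for HDAC2, in a merged site 2294 bp wide that was the widest in the region. The highest acetylation of the whole region lay next to it. An H3K27ac peak at the starts of the noncoding RNA genes HOXD-AS2 and LOC401021 (chr2:176133657-176137521) was 24.2-fold with a −log10 p of 154. By strength it was number 38 of the 21500 H3K27ac peaks. The H3K4me3 peak there was 24.5-fold, while subunit peaks under the acetylation were modest, at most 6.19-fold for MTA2, 4.43 for HDAC2, 4.30 for CHD4 and 4.06 for RBBP4. No merged site under it held all 4 subunits.

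**Figure D2:**
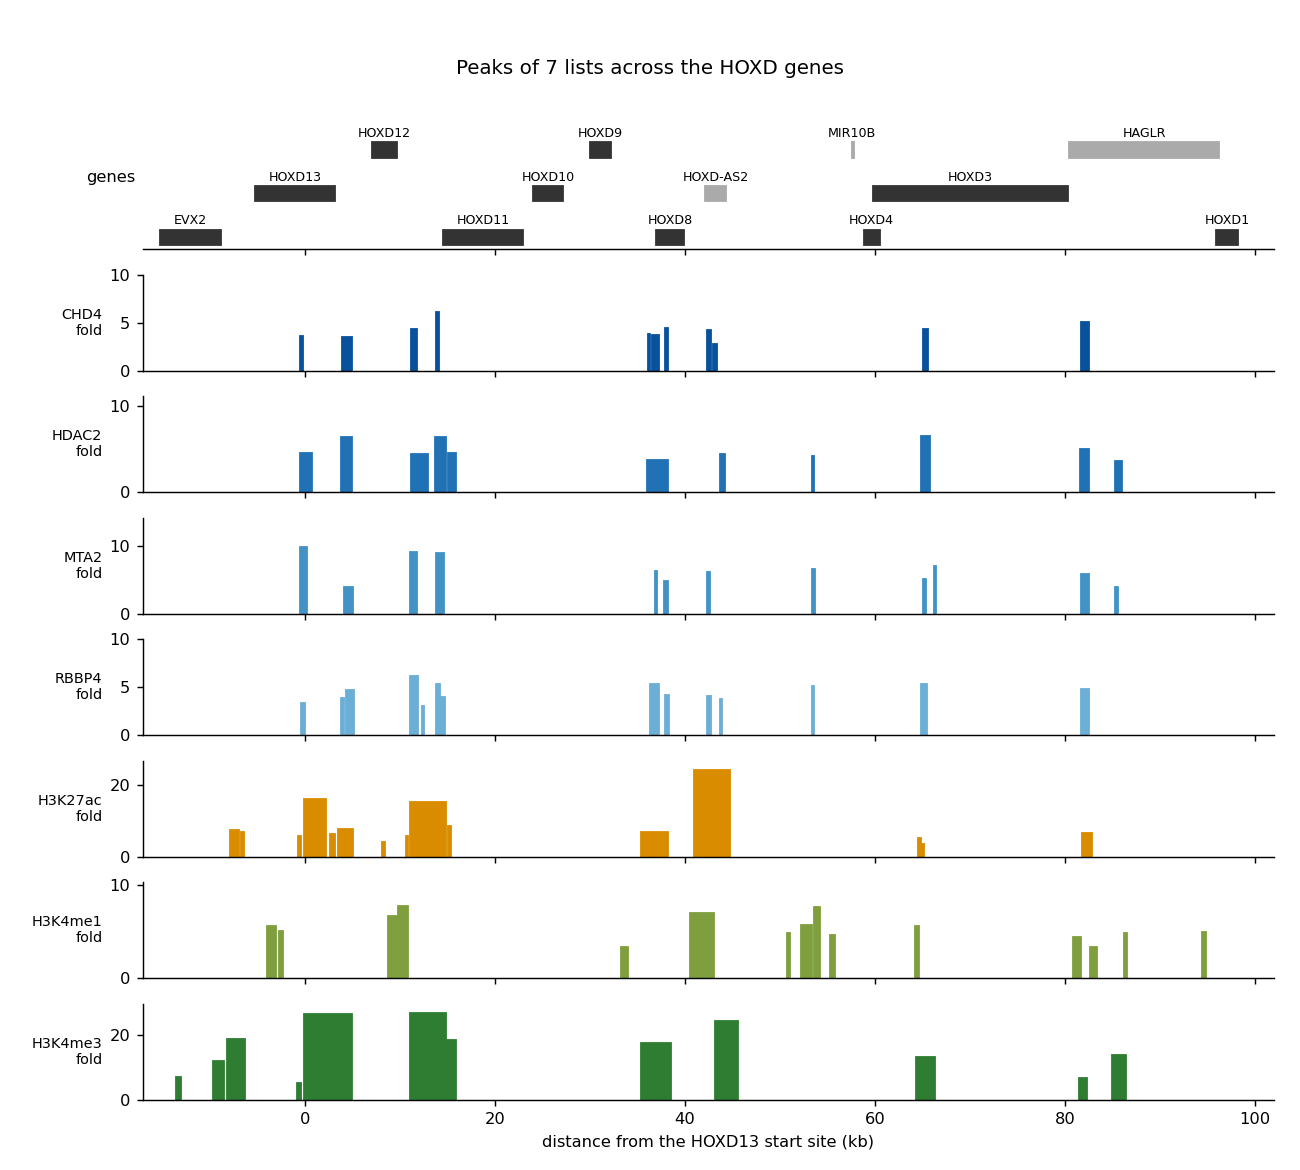
Peaks of the 7 lists with peaks across the HOXD genes, by distance from the HOXD13 start site (kb), with fold enrichment as bar height and peak width to scale (very narrow peaks slightly widened). H3K4me3 and H3K27ac form blocks at HOXD13, HOXD11, HOXD8 and HOXD-AS2, and the 17.4 kb around HOXD10 and HOXD9 is empty.

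Towards the anterior end, HOXD4 and the microRNA gene MIR10B beside it lay in a stretch of 8.4 kb without any peak. Before that stretch, a site of HDAC2 (4.19-fold), MTA2 (6.64-fold) and RBBP4 (5.13-fold) without CHD4 overlapped H3K4me1. HOXD3 carried H3K4me3 at 13.4-fold, the lowest of the 4 HOXD genes with the mark, and H3K27ac at only 5.08-fold. HDAC2 at HOXD3 was 6.50-fold, level with the 6.48-fold at HOXD11. In HAGLR, an antisense noncoding RNA gene at the HOXD1 end, a site with all 4 subunits overlapped H3K27ac of 6.46-fold, H3K4me1 and H3K4me3 of 6.86-fold. The start of HAGLROS, another noncoding gene inside HAGLR, had H3K4me3 of 13.8-fold with HDAC2 and MTA2 but no acetylation peak within 1 kb. HOXD1, the most anterior member, had no peak over its body, and the nearest was H3K4me1, 1067 bp from its start.

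Counted over gene bodies, H3K4me3 overlapped 4 of the 9 HOXD genes, where the share over all 19974 protein-coding genes was 60.6%. H3K27ac overlapped 5 (background 42.3%), H3K4me1 3 (24.7%), HDAC2 4 (43.5%), MTA2 4 (26.6%), RBBP4 4 (26.7%) and CHD4 3 (17.8%). FLI1 and H3K27me3 overlapped none, beside backgrounds of 2.74% and 3.5%. With 9 genes and no test, nothing is read from the distance of these shares to their backgrounds. Of the 8 HOXD genes with a listed start, HOXD13, HOXD11, HOXD8 and HOXD3 had H3K4me3 and H3K27ac within 1 kb of it, beside 61.2% and 42.3% of genes with a listed start. HOXD13, HOXD3 and MTX2 shared one combination, all 4 subunits with H3K27ac, H3K4me1 and H3K4me3, which 1079 genes outside the region (5.41%) also had. HOXD10, HOXD9, HOXD4 and HOXD1 had none, like 30.9% of genes elsewhere.

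**Figure D3:**
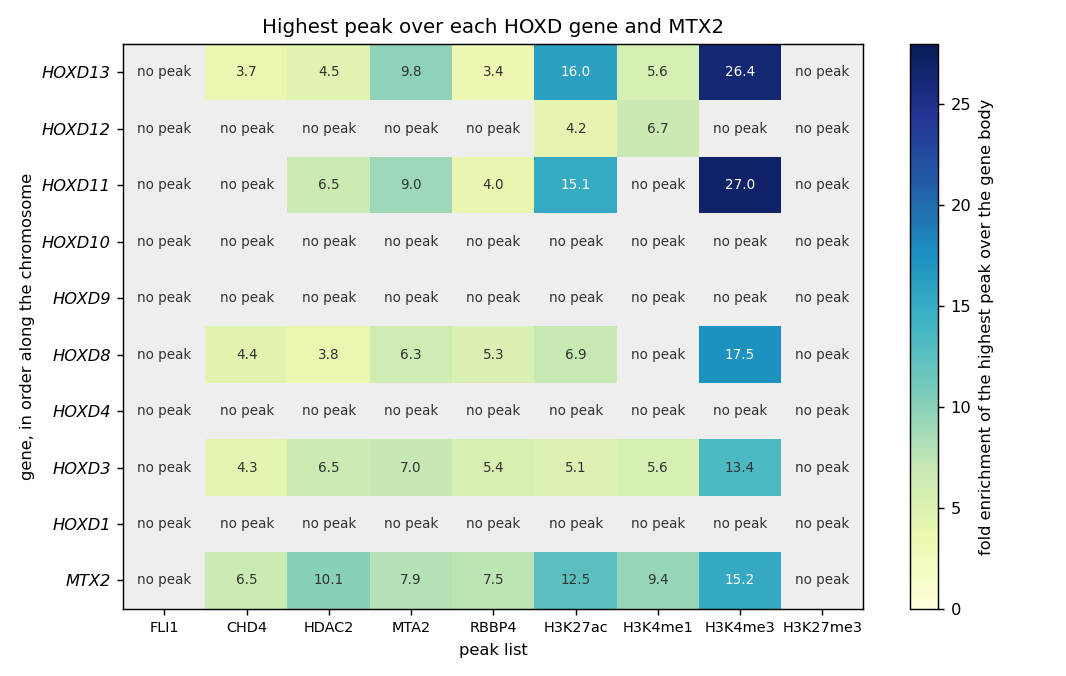
Fold enrichment of the highest peak of each list (columns) over the body of each HOXD gene and MTX2 (rows), colour from 0 to 28 and grey where no peak overlapped. HOXD10, HOXD9, HOXD4 and HOXD1 are empty in every column, and the FLI1 and H3K27me3 columns are empty for all 10 genes.

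MTX2 encodes metaxin 2, a protein of the mitochondrial outer membrane. Its start carried H3K4me3 of 15.2-fold, H3K27ac of 12.5-fold and all 4 subunits, with CHD4 the weakest at 2.96-fold. A second site, inside the MTX2 gene body 27877 bp from the start by its HDAC2 summit (chr2:176296973-176297619), held the highest HDAC2 peak of the region. Its HDAC2 fold enrichment was 10.1 with a −log10 p of 77.5, which placed it among the top 1.35% of the HDAC2 list by height and the top 0.480% by strength. MTA2 was 7.89-fold there, RBBP4 7.52-fold and CHD4 6.46-fold. The HDAC2 summit lay in the gap between H3K4me1 peaks of 8.19-fold and 9.37-fold, whose ends the HDAC2 peak touched, and the site had no H3K27ac and no FLI1 peak. A similar site stood in the flank beyond MTX2 (chr2:176518792-176519314), with MTA2 at 9.24-fold, HDAC2 at 9.22, RBBP4 at 6.35 and CHD4 at 4.47, at the edge of an H3K4me1 peak and without H3K27ac. The tallest and the next tallest HDAC2 peaks of the region stood beside H3K4me1 peaks and overlapped no acetylation peak. Number 3 by height, the 8.10-fold HDAC2 peak at the FLI1 peak described below, lay inside an H3K27ac peak of 14.9-fold. Over the whole series, 62.8% of sites with all 4 subunits overlapped H3K27ac and 53.4% overlapped H3K4me1.

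The FLI1 peak beyond MTX2 named in the choice of the region lay at chr2:176656192-176656688, 234 bp past the annotated end of the noncoding RNA gene LINC01117. Its summit was 318.5 kb from the end of MTX2, the nearest protein-coding gene, 467.8 kb from the HOXD1 start and 563.8 kb from the HOXD13 start. The fold enrichment was 22.2 and the −log10 p 144, against list medians of 7.29 and 19.01. It ranked number 4 of 1561 FLI1 peaks by strength and number 7 by height, and it was the first of the 130 FLI1 peaks on chromosome 2 by either. The next FLI1 peak towards the cluster was 1251.3 kb away, beyond the region, at 4.14-fold, and the next on the other side was 4365.1 kb away at 9.26-fold. These values describe the peak by which the region was partly chosen.

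Within the FLI1 peak, all 4 subunits overlapped, but unequally. MTA2 reached 12.9-fold (−log10 p 55.8) and RBBP4 8.16-fold (44.4), each the highest of its list in the region. HDAC2 reached 8.10-fold (53.7), the third highest. CHD4 was 4.57-fold (28.9), number 17 of the 36 CHD4 peaks of the region by height and number 9 by strength. Its width of 1551 bp was reached by 1.78% of the CHD4 list, and its strength by 12.8%. Among peaks of the same list that overlapped any FLI1 peak, 9% of 1200 MTA2 peaks and 15.9% of 1112 RBBP4 peaks were at least as high, as were 26.3% of 1075 HDAC2 peaks. For CHD4 the share was 87.5% of 1132, whose median was 6.29-fold. The strong FLI1 peak thus coincided with high MTA2 and RBBP4 and with CHD4 below its usual height at FLI1 peaks, a contrast between single lists that could not be tested. The HDAC2 summit was 57 bp from the FLI1 summit, RBBP4 221 bp, CHD4 242 bp and MTA2 247 bp.

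The FLI1 summit stood inside an H3K27ac peak 7019 bp wide, 14.9-fold and of −log10 p 122, number 50 of 21500 by width. The acetylation summit was 699 bp to the far side. H3K4me1 peaks flanked the FLI1 peak without touching it, the nearer ending 138 bp before it at 8.45-fold and the other beginning 528 bp after it at 7.08-fold. By −log10 p (42.0) the peak before FLI1 was in the top 1.05% of its list. No H3K4me3 peak lay within 10 kb. Other subunit peaks of 3.67-fold to 5.59-fold accompanied the acetylation on both sides, among them a site with all 4 subunits whose CHD4 summit was 2431 bp before the FLI1 summit.

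**Figure D4:**
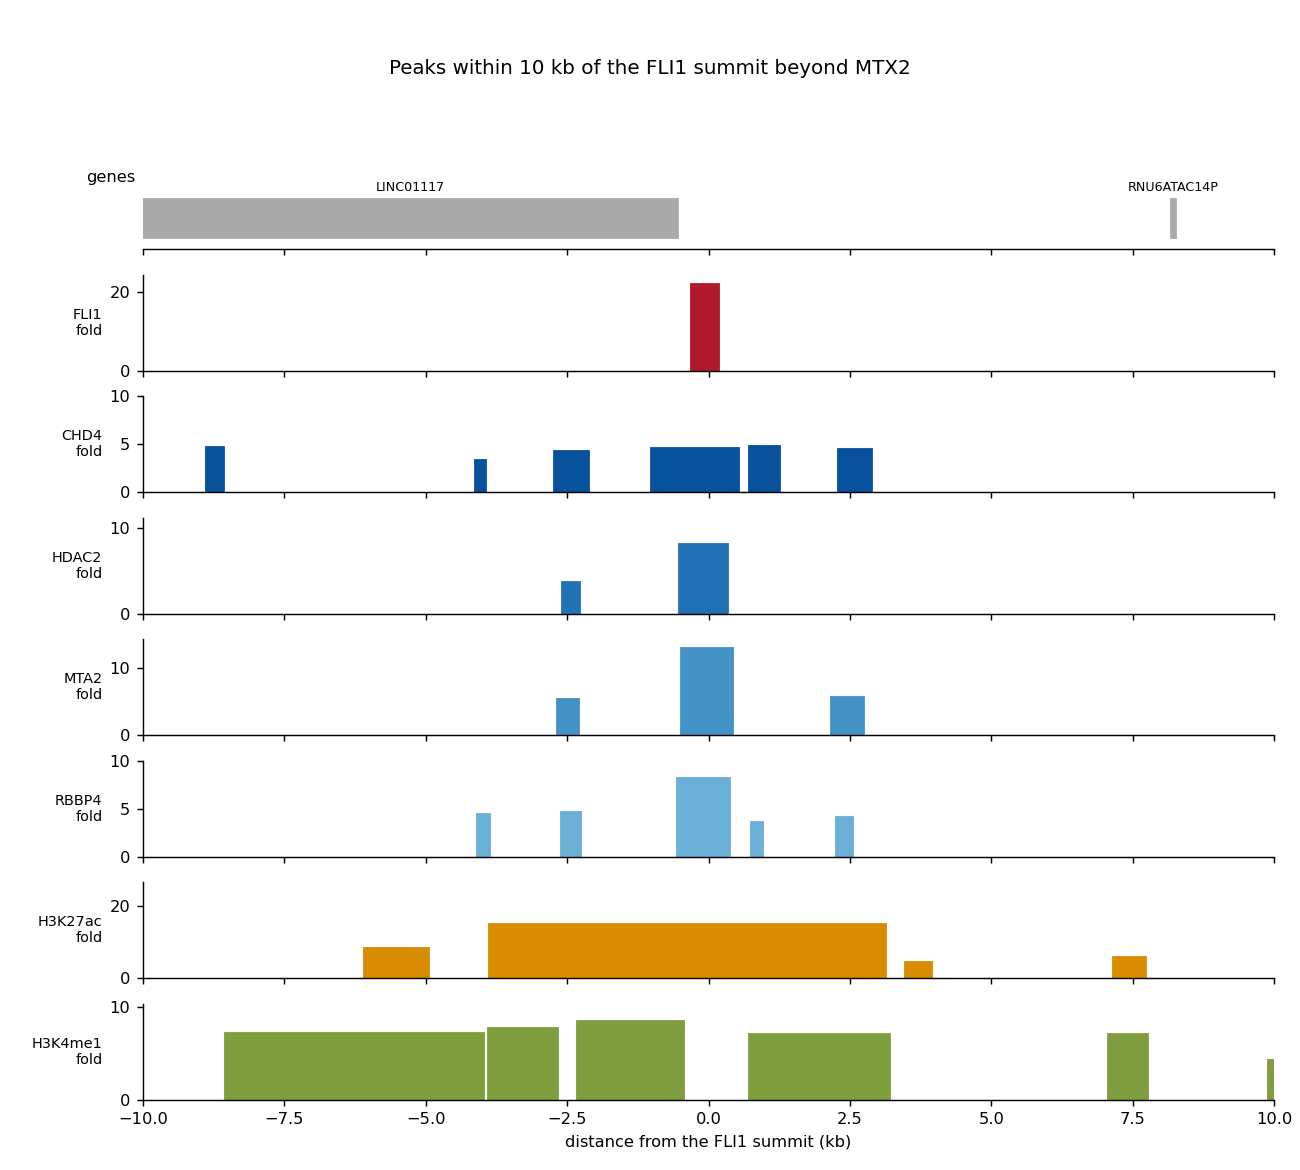
Peaks of 7 lists within 10 kb of the FLI1 summit, by distance from it (kb), with fold enrichment as bar height and width to scale. MTA2, HDAC2 and RBBP4 are highest under FLI1, CHD4 stays between 3.41-fold and 4.84-fold across the neighbourhood, and H3K4me1 leaves a gap there.

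Joining H3K27ac peaks within 10 kb, a rule chosen after the values were seen, gave a domain of 19.7 kb around FLI1 with 5 peaks covering 9.91 kb. It ranked number 151 of 11678 domains by fold enrichment times width. The domain from the EVX2 side of HOXD13 to HOXD11 was level with it at number 150, with 10 peaks covering 10.5 kb in 23.3 kb. The domain over HOXD8 and HOXD-AS2 followed at number 173. These 3 domains were all in the top 1.48%, and the order of the first pair turned round when peaks were joined within 5 kb, with the FLI1 domain at number 144 and the HOXD13 to HOXD11 domain at 151. No H3K4me3 peak overlapped the FLI1 domain, whereas the other 2 overlapped H3K4me3 at HOXD13, HOXD11, HOXD8 and HOXD-AS2.

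Between the FLI1 peak and MTX2, the paired start of the noncoding genes LINC01116 and LINC01117 carried H3K4me3 of 7.37-fold. A site with all 4 subunits lay within 1 kb (HDAC2 7.54-fold, CHD4 5.83-fold, RBBP4 5.29-fold, MTA2 4.04-fold). It did not overlap that H3K4me3 peak, and it was the only site of the region with all 4 subunits that overlapped no histone mark peak. No acetylation peak lay within 1 kb of either start. On the centromeric side, EVX2, a homeobox gene next to HOXD13, had H3K4me3 of 12.0-fold over its body. Within 1 kb of its start, H3K4me3 was 18.8-fold and H3K27ac 7.40-fold, and no subunit peak lay on the body. LNPK, which encodes an endoplasmic reticulum protein, had H3K4me3 of 19.3-fold and H3K27ac of 4.41-fold within 1 kb of its starts. HDAC2 at 4.96-fold and RBBP4 at 3.21-fold lay there too, and neither CHD4 nor MTA2.

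Overlapping subunit peaks of the region merged into 48 sites. All 4 subunits were present at 18 (37.5%), 3 at 7, 2 at 8 and 1 at 15. Over the whole series the share of merged sites with all 4 was 17% (4917 of 28995). When peaks weaker than a −log10 p of 15 were left out, the count in the region was 11 of 43 sites (25.6%), beside 2683 of 22547 (11.9%) in the series. Sites with all 4 differed in their marks along the region. The 7 in the cluster all overlapped both H3K4me3 and H3K27ac, and only 1 overlapped H3K4me1. The 4 on the centromeric side all overlapped H3K4me1, 1 overlapped H3K27ac and none H3K4me3. Of the 2 in MTX2, the one at the start overlapped H3K27ac and H3K4me3 and the other H3K4me1. Beyond MTX2, 4 of 5 overlapped H3K4me1, 3 H3K27ac, 1 FLI1 and none H3K4me3. Of the 18 sites, 12 overlapped H3K27ac (66.7%) and 8 H3K4me3 (44.4%), beside 62.8% and 30.0% of such sites in the series. H3K4me1 was overlapped by 10 (55.6%) and FLI1 by 1 (5.56%), beside 53.4% and 17.2% in the series.

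H3K27me3 had no peak in the region. The nearest lay 1744.3 kb from the cluster on the centromeric side, at 5.45-fold. Chromosome 2 as a whole held 245 of the 3420 H3K27me3 peaks, and 3.5% of all protein-coding genes overlapped one. Peaks of this list were thus sparse, and their absence from 1250.5 kb is not read as a feature of the region. The list covered 2.38 Mb in all, so chromatin outside it may still carry the mark. The other HOX clusters were taken from the first to the last base of their HOX genes. In H3K27me3 cover HOXA differed most from HOXD, and HOXC did not differ. The mark covered 0% of the HOXD cluster, 11.7% of HOXA, 0.816% of HOXB (which is stretched to 200.2 kb by the distant HOXB13) and 0% of HOXC. H3K27ac covered 17% of HOXD, 0.419% of HOXA, 6.70% of HOXB and 14.7% of HOXC. H3K4me3 covered 19.5% of HOXD, 9.95% of HOXA, 10.3% of HOXB and 13.4% of HOXC. By cover, HOXD thus stood nearest to HOXC, except for H3K4me1, with 11.6% in HOXD and 29.2% in HOXC.

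By gene body, H3K4me3 overlapped 4 of 9 HOXD genes (44.4%) and 23 of the 30 genes of the other clusters (76.7%), among them all 9 HOXC genes. The share over all protein-coding genes, 60.6%, lay between these values. MTA2 covered 6.04% of HOXD, 1.33% of HOXA, 1.53% of HOXB and 4.79% of HOXC, and CHD4 5.64%, 2.61%, 1.21% and 8.49% in the same order. No FLI1 peak lay inside any of the 4 clusters. Over all protein-coding genes only 2.74% overlapped a FLI1 peak, so nothing is read from this absence. Within 500 kb of a cluster there was 1 FLI1 peak for HOXD without the added MTX2 flank, 0 for HOXA, 1 for HOXB and 4 for HOXC, the highest being 22.2-fold at HOXD, 12.4-fold at HOXB and 13.6-fold at HOXC. These comparisons set single lists side by side and carry no test.

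**Figure D5:**
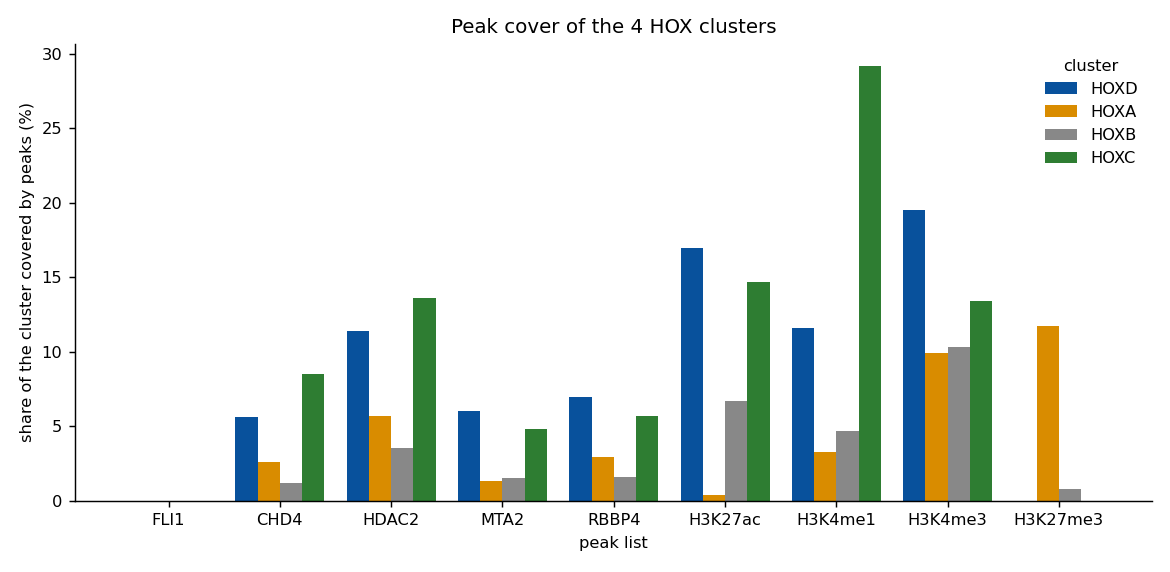
Share of each HOX cluster covered by peaks of each list (%), with HOXD at the left of each group of bars, followed by HOXA, HOXB and HOXC. HOXD has 17% H3K27ac and 0% H3K27me3 cover, HOXA 0.419% and 11.7%, and no bar has an error because each target had 1 list.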

How the data were processed

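The 9 peak lists of ChIP-seq in SK-N-MC cells were used, 1 per target, with samples grouped by the target in their titles. No list was used for the 2 inputs. The submitters' processing notes name bedtools 2.27.1, deepTools 3.2.1, BWA 0.7.17, SAMtools 1.9, FastQC 0.11.7, Trimmomatic 0.36 and the build GRCh38, without roles. MACS2 appears in the deposited peak names. Its version, the control library and any pooling of replicates are not stated in the labels or headers. Fold enrichment (a ratio) and −log10 p are values the authors deposited for each peak. They served only to describe, rank and filter peaks within a list.

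Positions were made 1-based. Peaks counted when at least 1 bp lay in the region or gene body. Genes and start sites came from RefSeq tables of GRCh38.p14 (chromosomes 1 to 22 and X), which give no exons, so exon and intron were not assigned. Overlapping subunit peaks were merged into sites. Python 3.11.15 with pandas 2.3.3 was used, and the overlap and merging steps were tested on simulated intervals. The region, its genes and the comparison lists were chosen with earlier results of these data known. All members, other genes of the region and extremes among other HOX genes were named by rule. Alternatives were a flank of 250 kb, a −log10 p of at least 15, summits inside gene bodies, bodies extended by 2 kb, merging at 50% overlap, and rank by height.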

Additional observations from a re-analysis of the deposited data

How the results depend on the processing

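With flanks of 250 kb the region held no FLI1 peak (0), 20 CHD4 peaks, 19 H3K27ac peaks and 46 H3K4me1 peaks; the FLI1 peak lies 318.5 kb beyond MTX2 and so falls outside. With gene bodies extended by 2 kb, CHD4 overlapped 5 HOXD genes and H3K4me1 6. At a −log10 p of at least 15 the sites with all 4 subunits fell to 11. The other 51 of 58 alternatives, including every one on covered bases in the cluster, stayed within 1.5 times the main value. The percentile of the FLI1 peak in its list (99.744 by strength, 99.552 by height) is among them but was set by the choice of the region, so nothing is read from it. Joining H3K27ac peaks within 5 kb, added after the data were seen, put the FLI1 domain at number 144.

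No paired analysis was possible because each target had 1 list, and for the same reason leaving out replicates could not be done. Depth is unknown, so the lack of a peak is not read as the lack of a protein or mark, and peak numbers are not ranked between lists with different thresholds.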

Other observations

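Near the far edge of the region, 5 H3K27ac peaks of 4.74-fold to 9.27-fold formed a domain of 7.3 kb (chr2:176812931-176820192) that no protein-coding gene overlapped. An H3K4me1 peak there was 4190 bp wide, number 46 of 31247 by width. A site with all 4 subunits stood at its far end, with RBBP4 at 6.50-fold, CHD4 at 5.72, HDAC2 at 4.39 and MTA2 at 3.64, and no FLI1 peak. At the centromeric edge a site with all 4 subunits (chr2:175600126-175600992) held the strongest CHD4 peak of the region, 7.18-fold with a −log10 p of 48.5, in the top 1.87% of the CHD4 list by strength. The CHD4 peak of greatest height, 7.20-fold, lay 7931 bp from an LNPK start and itself overlapped no H3K4me1, H3K27ac or FLI1 peak. The merged site it belonged to, with all 4 subunits, did overlap an H3K4me1 peak of 5.23-fold. The 2 highest CHD4 peaks of the region were thus away from the cluster and from the FLI1 peak.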
